A study of Homo sapiens with 54 samples.

Results

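The genes described here are 35 genes of DNA damage signalling and homologous recombination, followed through androgen blockade in 54 tumours grown from LNCaP, a human prostate cancer cell line that needs androgen to grow. The members were taken by symbol from a list of repair genes, and they were chosen with earlier results of these data known. All 35 were among the 60642 symbols of the expression table, which gives TPM, a transcript level per length. All 35 passed the filter on low values, a level of 1 TPM or above in 8 tumours. They comprised 4 genes of break sensing and resection, 4 checkpoint kinases, 11 mediators of recombination and their helpers, 6 genes of the Fanconi anaemia pathway, 4 genes that take apart joined DNA molecules, 3 genes of ADP-ribosylation and polymerase theta end joining, 2 mismatch repair genes and the transcription kinase CDK12. The question put to the data was which of them fall when androgen signalling is blocked, and which move with MKI67, a protein made by dividing cells.

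Homologous recombination repairs a broken chromosome by copying the intact sister strand. The broken ends are first cut back to single strands, BRCA1, PALB2 and BRCA2 prepare these strands to invade the sister copy, and the joined molecules are later taken apart by helicases and nucleases. A sister copy exists only after DNA replication, so many genes of the pathway are transcribed in S and G2 phase, as are the genes of replication itself. The Fanconi anaemia proteins remove crosslinks between the strands and hand the resulting breaks to the same machinery. In prostate cancer, inherited or acquired defects in BRCA2, ATM and other genes of the pathway are the reason why inhibitors of PARP are given. LNCaP cells are known to lack mismatch repair.

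All tumours came from 1 line, LNCaP clone FGC, injected under the skin of the flank of male NOD-SCID mice, obtained at an age of 5 to 6 weeks, which have no working T and B cells. Each mouse received 1000000 cells and was operated on once its tumour reached about 200 mm3, and each tumour came from its own mouse. The untreated tumours, PRE-CX (n = 9), grew in mock-operated mice and were harvested at 1000 mm3. POST-CX tumours (n = 8) were taken 1 week after castration, at the low point of prostate-specific antigen (PSA) in the blood. CRPC tumours (n = 10) were from castrated mice whose PSA had returned or whose tumour had reached 1000 mm3. ENZS tumours (n = 12) and ENZR tumours (n = 15) were from castrated mice given enzalutamide, an inhibitor of the androgen receptor, by mouth at 10 mg/kg on 5 days a week from the rise of PSA on. The ENZS tumours were taken at the second low point of PSA, and the ENZR tumours when PSA came back or at 1000 mm3. Enzalutamide was therefore always added to castration, and stage of treatment, time and tumour size differ together between the groups.

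Human genes held 12.15% to 97.47% of the TPM of a tumour (median 89.91%), the rest being mouse, and each tumour was rescaled to 1000000 human TPM. POST-CX mouse 91 (27.89%) and ENZR mouse 87 (12.15%) stood apart by their low human share. All 10 LNCaP epithelial markers had a median of 1 TPM or more in every group. Of 16 markers of stroma and blood, 7 were under 1 TPM in every tumour (FAP, PECAM1, CDH5, PTPRC, CD14, HBB and HBA1). The summed level of all 16 had a median of 15.6 TPM in PRE-CX (7.78 to 21.3), 21.9 in POST-CX (12.8 to 35.7), 25.9 in CRPC (14.1 to 100.7), 50.1 in ENZS (22.1 to 277.8) and 63.7 in ENZR (13.0 to 93.5), so it was higher where the repair genes were lower, and its part in the results was not tested. In bulk RNA, fewer cells that transcribe a gene and less RNA per cell cannot be told apart.

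The 35 genes split into a group that dropped under enzalutamide and a group that stayed or rose. In ENZS tumours 22 of 35 members were lower than in PRE-CX tumours and 4 were higher (limma, Benjamini-Hochberg adjusted p under 0.05 over 17593 genes), against 13.6% of all genes tested called lower and 47.5% called higher. In ENZR tumours 21 were lower and 4 higher, against 13.8% and 44.6% of all genes, and all 21 were among the 22 of ENZS. After castration alone fewer members were called lower. In POST-CX tumours 1 member was lower and 5 were higher (2.86% and 14.3%), against 5.62% and 20.6% of all genes. In CRPC tumours 4 were lower and 1 higher (11.4% and 2.86%), against 5.87% and 14.2%. Few calls do not mean that no member moved. In CRPC 28 of 35 estimates were negative, with 15 members and 5795 of 17593 genes at an unadjusted p under 0.05. A limma fit of only the CRPC and PRE-CX tumours called more members lower, as given in the last section. The median log2 difference from PRE-CX over the 35 members was -0.06 in POST-CX, -0.19 in CRPC, -0.83 in ENZS and -0.61 in ENZR, while the median over all genes tested was 0.16, 0.08, 0.29 and 0.25. Centring every tumour on its median gene brings those last medians near 0 and gives 24 members lower and 0 higher in ENZS, and 25 lower and 2 higher in ENZR, while all genes split into 4983 lower and 4679 higher in ENZS in place of 2386 and 8364. The 4 contrasts with PRE-CX share the same 9 control tumours.

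**Figure D1:**
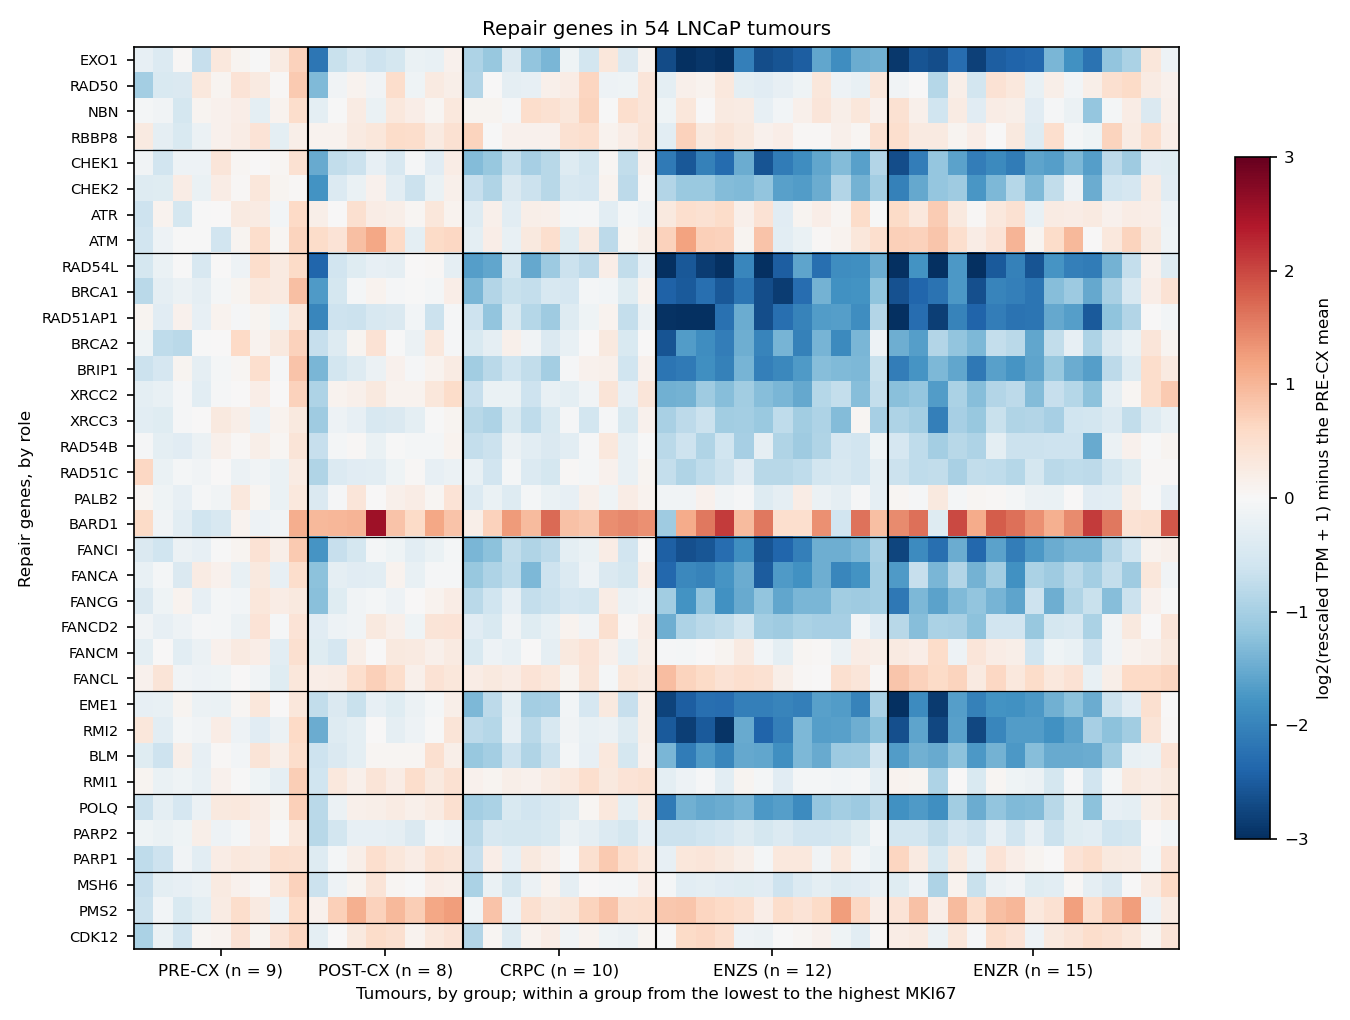
Each row is 1 of the 35 repair genes, ordered by role (black lines), and each column 1 of the 54 tumours, ordered within its group by MKI67. The colour is log2(rescaled TPM + 1) minus the PRE-CX mean of that gene; ENZS and most ENZR columns are blue in the rows of the 22 genes called lower in ENZS, and the BARD1 row is red in most tumours after castration.

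Among the genes of break sensing and resection, only EXO1 fell. EXO1, the nuclease that extends resection and also serves mismatch repair, had a median of 9.19 TPM in PRE-CX (5.16 to 15.0), 5.97 in POST-CX (1.22 to 9.88), 6.05 in CRPC (2.83 to 11.5), 0.726 in ENZS (0.0789 to 2.65) and 1.04 in ENZR (0.343 to 11.5). All 12 ENZS tumours and 13 of 15 ENZR tumours lay below the lowest PRE-CX tumour. The log2 difference was -2.33 ± 0.31 (SE, adjusted p = 1.06e-08) in ENZS and -1.85 ± 0.29 (adjusted p = 7.39e-07) in ENZR. RAD50, part of the MRN complex that binds broken ends, kept to one range throughout, with medians of 23.6 TPM in PRE-CX (10.4 to 39.1), 22.2 in POST-CX (8.25 to 32.3), 21.3 in CRPC (11.6 to 34.9), 20.1 in ENZS (17.2 to 28.4) and 25.0 in ENZR (11.8 to 33.5). Its ENZS difference was -0.04 with a 95% interval of -0.40 to 0.33. NBN, its partner in the same complex, was called in none of the 4 groups, and its group medians lay between 38.4 and 50.8 TPM. RBBP8, which encodes CtIP and starts resection, had medians of 20.6 TPM in PRE-CX (13.5 to 25.5), 23.5 in POST-CX (20.2 to 28.0), 21.4 in CRPC (18.7 to 30.3), 21.5 in ENZS (14.9 to 31.0) and 22.7 in ENZR (14.3 to 30.8), and was called higher in POST-CX alone of the 4 groups (0.33 ± 0.12, adjusted p = 0.0453). That call was lost when tumours were centred on their median gene, and without POST-CX mouse 99 (adjusted p = 0.0630).

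The checkpoint kinases divided by their place in the cascade. The effector kinases fell: CHEK1, which acts downstream of ATR at stalled forks, had a median of 19.3 TPM in PRE-CX (12.5 to 26.4), 14.01 in POST-CX (6.02 to 22.3), 11.1 in CRPC (7.09 to 20.9), 4.19 in ENZS (2.34 to 9.81) and 5.61 in ENZR (2.16 to 14.7). No ENZS tumour reached the lowest PRE-CX tumour, and the log2 difference was -0.65 ± 0.24 in CRPC (adjusted p = 0.0436), -1.87 ± 0.23 in ENZS (adjusted p = 1.39e-09) and -1.49 ± 0.22 in ENZR (adjusted p = 1.31e-07). The limma call of CHEK1 in CRPC was lost with TPM as deposited (adjusted p = 0.228) and with no filter (adjusted p = 0.0896). It was also lost with a pseudocount of 0.1 (adjusted p = 0.0554). CHEK2, the effector of ATM, dropped from a median of 18.9 TPM in PRE-CX to 7.11 in ENZS and 8.16 in ENZR, with log2 differences of -1.25 ± 0.20 and -0.98 ± 0.19. The sensor kinases did not fall. ATM, which answers to double-strand breaks, had medians of 19.5 TPM in PRE-CX (12.9 to 32.1), 30.1 in POST-CX (15.9 to 45.6), 21.5 in CRPC (11.1 to 28.5), 27.0 in ENZS (15.8 to 47.0) and 28.4 in ENZR (18.0 to 40.9). The groups overlapped, and ATM was called higher in POST-CX (0.56 ± 0.19, adjusted p = 0.0246), ENZS (0.39 ± 0.17, adjusted p = 0.0480) and ENZR (0.48 ± 0.17, adjusted p = 0.0123). With centring on the median gene none of these 3 ATM calls remained, and the POST-CX call was also lost without POST-CX mouse 99 (adjusted p = 0.0698). ATR, which answers to single-stranded DNA, was not called against PRE-CX in any group, and its group medians ran from 15.7 TPM in CRPC to 19.7 in ENZS.

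Among the recombination mediators, BRCA1 and its own partner BARD1 moved in opposite directions. BRCA1 had a median of 14.1 TPM in PRE-CX (7.91 to 28.2), 14.2 in POST-CX (3.84 to 17.1), 10.1 in CRPC (5.10 to 15.9), 2.25 in ENZS (1.19 to 5.79) and 3.76 in ENZR (1.53 to 20.3). Every ENZS tumour was below the PRE-CX range, and 12 of 15 ENZR tumours were. The log2 difference of BRCA1 was -2.16 ± 0.29 in ENZS (adjusted p = 1.12e-08) and -1.501 ± 0.27 in ENZR (adjusted p = 8.63e-06). BARD1, whose protein pairs with BRCA1 as a ubiquitin ligase, ran the other way, with a median of 25.5 TPM in PRE-CX (17.9 to 59.5), 55.3 in POST-CX (41.3 to 165.5), 60.6 in CRPC (31.2 to 91.7), 57.3 in ENZS (12.6 to 121) and 75.3 in ENZR (20.9 to 121.5). It was higher than in PRE-CX in all 4 groups, by 1.12 ± 0.32 in POST-CX (adjusted p = 0.00705), 1.07 ± 0.30 in CRPC (adjusted p = 0.00799), 0.89 ± 0.29 in ENZS (adjusted p = 0.00691) and 1.305 ± 0.28 in ENZR (adjusted p = 7.68e-05) on the log2 scale. The ranges of BARD1 overlapped those of PRE-CX in each group, and 11 of 15 ENZR tumours lay above the highest PRE-CX tumour. The ENZS call of BARD1 did not pass when tumours were centred on their median gene (adjusted p = 0.0557), and with TPM as deposited only the ENZR call passed (adjusted p = 0.0173); leaving out POST-CX mouse 91 and ENZR mouse 87 brought all 4 calls back in the deposited values. Without POST-CX mouse 99, the highest of that group, BARD1 was still higher in POST-CX (0.92, adjusted p = 0.0290).

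Further along the same pathway, BRCA2, which prepares the single strands for invasion, had medians of 6.41 TPM in PRE-CX (3.14 to 10.8), 6.18 in POST-CX (3.55 to 8.83), 5.52 in CRPC (4.31 to 7.94), 1.14 in ENZS (0.217 to 5.54) and 3.19 in ENZR (1.32 to 8.42). Of the ENZS tumours 11 of 12 were below the PRE-CX range, but only 7 of 15 ENZR tumours were. Its log2 difference was -1.66 ± 0.22 in ENZS (adjusted p = 1.26e-08) and -0.78 ± 0.21 in ENZR (adjusted p = 0.00151). RAD51AP1, which stimulates strand invasion, had medians of 34.2 TPM in PRE-CX (25.2 to 40.8), 21.7 in POST-CX (7.53 to 31.5), 22.0 in CRPC (13.6 to 35.0), 6.63 in ENZS (3.16 to 17.2) and 6.89 in ENZR (2.44 to 32.6). It dropped by 2.14 ± 0.28 in ENZS and by 1.81 ± 0.27 in ENZR on the log2 scale. RAD54L, a motor protein of strand exchange, fell from a median of 13.2 TPM to 1.78 in ENZS and 2.52 in ENZR, with a log2 difference of -2.38 ± 0.33 in ENZS. BRIP1, the helicase partner of BRCA1, fell from 4.22 to 0.566 TPM in ENZS. XRCC2, XRCC3 and RAD51C, mediators of strand exchange, fell less: XRCC2 by 1.17 ± 0.21, XRCC3 by 0.88 ± 0.16 and RAD51C by 0.64 ± 0.11 in ENZS, the last from a median of 111.6 to 75.2 TPM. RAD54B was lower by 0.69 ± 0.15. PALB2, the bridge between BRCA1 and BRCA2, was called in none of the 4 groups, with medians of 6.85 to 8.50 TPM.

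**Figure D2:**
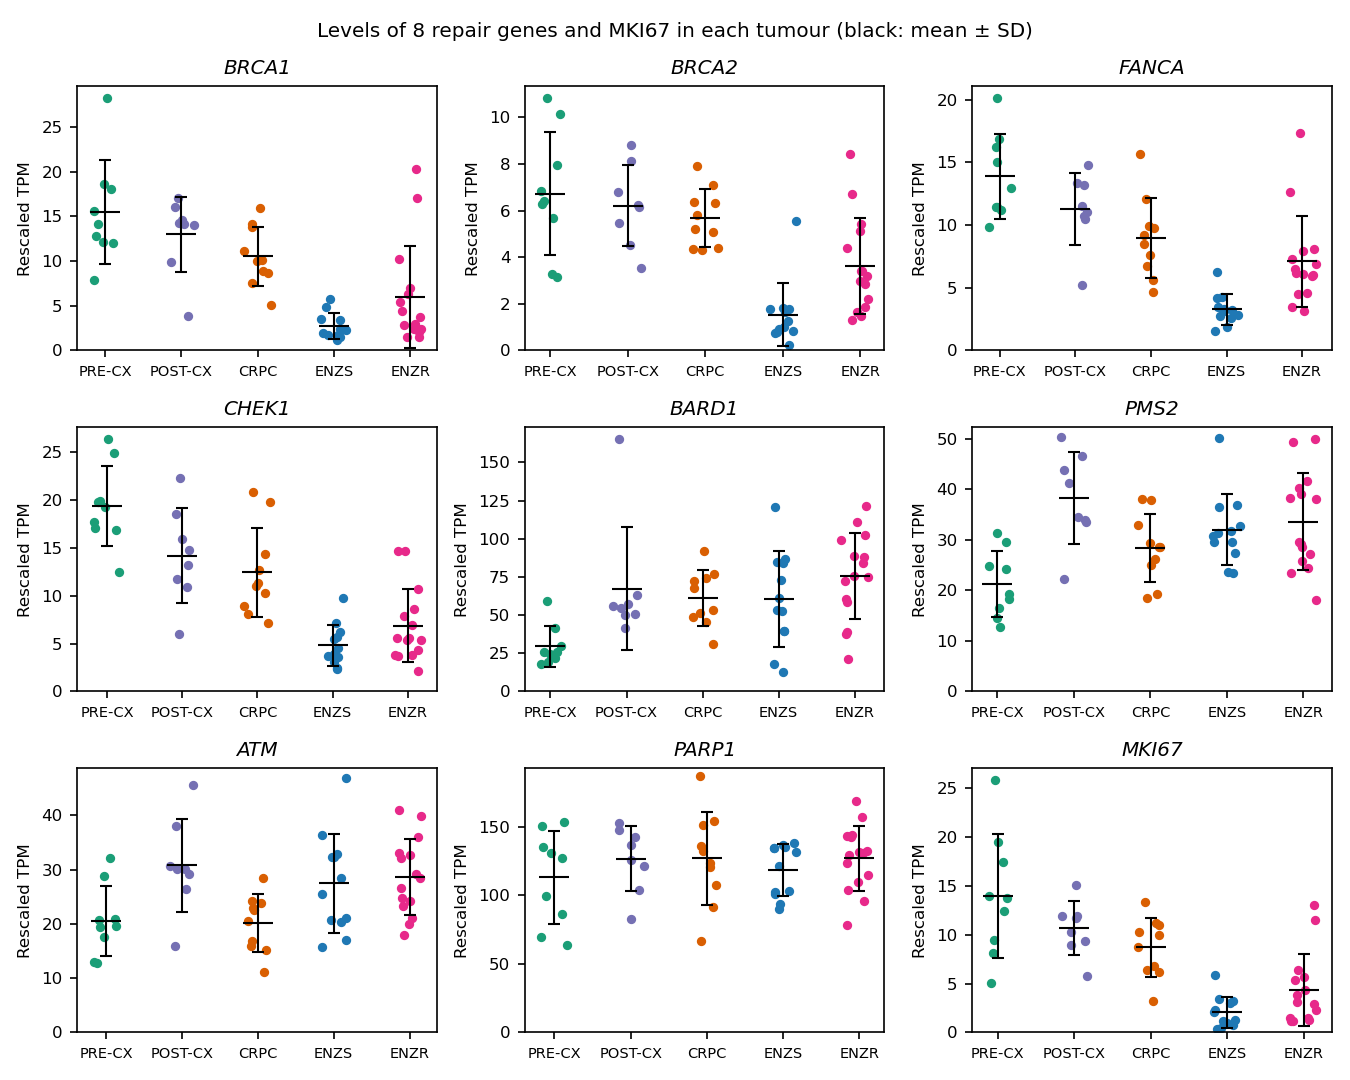
Each point is 1 tumour, the horizontal line the group mean and the error bar its SD, for 8 repair genes and MKI67 in rescaled TPM on a linear axis. BRCA1, BRCA2, FANCA and CHEK1 are lowest in ENZS as MKI67 is, BARD1 and PMS2 are lowest in PRE-CX, and PARP1 lies at 63.9 to 187 TPM with overlapping groups.

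In the Fanconi anaemia pathway 4 of 6 members fell and 1 rose. FANCA, a scaffold of the core complex, had a median of 13.0 TPM in PRE-CX (9.81 to 20.2), 11.3 in POST-CX (5.20 to 14.8), 8.86 in CRPC (4.70 to 15.6), 3.18 in ENZS (1.57 to 6.24) and 6.17 in ENZR (3.15 to 17.3). It had the lowest adjusted p of all members in ENZS (-1.82 ± 0.19, adjusted p = 7.27e-11), and 12 of 12 ENZS tumours lay under the lowest PRE-CX value. It was also lower in CRPC (-0.61 ± 0.20, adjusted p = 0.0251) and ENZR (-0.95 ± 0.19, adjusted p = 2.37e-05). The limma call of FANCA in CRPC was lost with TPM as deposited (adjusted p = 0.226) and with no filter (adjusted p = 0.0520). FANCG, its partner in the core, fell from 27.1 to 11.1 TPM in ENZS. The substrate pair of the core complex, FANCD2 and FANCI, went from 25.1 to 13.1 and from 47.6 to 9.91 TPM in ENZS, by -0.83 ± 0.16 and -2.01 ± 0.27 on the log2 scale. FANCL, the ubiquitin ligase of the core, moved up instead, from 8.04 TPM in PRE-CX (6.58 to 11.7) to 11.8 in POST-CX (9.80 to 15.0), 10.9 in CRPC (8.40 to 12.0), 12.2 in ENZS (8.81 to 17.4) and 13.5 in ENZR (7.36 to 16.3). It was called in POST-CX (0.39 ± 0.12, adjusted p = 0.0122), ENZS (0.39 ± 0.11, adjusted p = 0.00176) and ENZR (0.47 ± 0.10, adjusted p = 0.000129), but in none of these with tumours centred on the median gene. FANCM, a helicase that brings the core to DNA, was level, with group medians of 6.30 to 7.55 TPM and no call.

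The genes that take apart joined DNA molecules mostly fell. EME1, the partner of the MUS81 nuclease, had medians of 11.9 TPM in PRE-CX (9.83 to 15.3), 9.44 in POST-CX (6.67 to 13.4), 7.49 in CRPC (4.02 to 14.7), 2.10 in ENZS (0.881 to 5.50) and 3.06 in ENZR (0.610 to 16.8). All 12 ENZS tumours lay below the PRE-CX range, and the log2 difference was -2.01 ± 0.27 (adjusted p = 1.09e-08). The BLM helicase works in a complex with RMI1 and RMI2. RMI2 had medians of 15.0 TPM in PRE-CX (12.5 to 24.8), 13.8 in POST-CX (5.13 to 21.5), 12.7 in CRPC (8.49 to 18.3), 3.77 in ENZS (1.22 to 6.23) and 4.54 in ENZR (1.56 to 21.4), and BLM itself went from 5.05 TPM in PRE-CX to 1.07 in ENZS. Their ENZS differences were -2.01 ± 0.27 and -1.47 ± 0.21. RMI1, the other subunit, was not called against PRE-CX and had 37.0 TPM in PRE-CX and 38.3 in ENZS.

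Of the genes that PARP inhibitors act on, PARP1 did not fall. PARP1, the main poly(ADP-ribose) polymerase at DNA breaks, had medians of 127 TPM in PRE-CX (63.9 to 154), 131 in POST-CX (82.7 to 153), 128 in CRPC (66.7 to 187), 126 in ENZS (90.3 to 138) and 131 in ENZR (78.5 to 169). The groups overlapped throughout, and the ENZS difference was 0.12 with an interval of -0.18 to 0.41. PARP2, its smaller relative, was the sole member lower than PRE-CX in all 4 groups, from a median of 49.7 TPM in PRE-CX to 42.5 in POST-CX, 37.1 in CRPC, 35.2 in ENZS and 35.3 in ENZR. The log2 differences of PARP2 were small, -0.35 ± 0.10 (adjusted p = 0.00682), -0.44 ± 0.09 (adjusted p = 0.000559), -0.49 ± 0.09 (adjusted p = 8.78e-06) and -0.44 ± 0.09 (adjusted p = 2.64e-05) in that order. With TPM as deposited only the ENZR call of PARP2 passed, with adjusted p = 0.198 in POST-CX, 0.402 in CRPC and 0.0768 in ENZS, and without POST-CX mouse 91 and ENZR mouse 87 in those values the POST-CX call still failed (adjusted p = 0.0581). POLQ, the polymerase of an end joining route used when recombination fails, fell from 5.33 TPM in PRE-CX to 1.15 in ENZS and 1.64 in ENZR.

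The mismatch repair genes moved apart. PMS2, an endonuclease subunit of mismatch repair, had medians of 19.2 TPM in PRE-CX (12.7 to 31.3), 37.9 in POST-CX (22.2 to 50.4), 28.7 in CRPC (18.4 to 38.0), 31.0 in ENZS (23.5 to 50.1) and 29.6 in ENZR (18.1 to 50.02). No POST-CX or ENZS tumour was below the PRE-CX median, and the log2 difference was 0.84 ± 0.18 in POST-CX (adjusted p = 0.000419), 0.60 ± 0.16 in ENZS (adjusted p = 0.00120) and 0.64 ± 0.15 in ENZR (adjusted p = 0.000403). After centring on the median gene PMS2 passed in POST-CX and ENZR but not in ENZS (adjusted p = 0.0575), and with TPM as deposited it passed in none of them. PMS2 has near-identical pseudogene copies among which reads can be split, so its level is uncertain. MSH6, a subunit that recognises mismatched bases, had medians of 18.5 TPM in PRE-CX (10.8 to 29.9), 19.1 in POST-CX (11.2 to 23.99), 16.6 in CRPC (8.98 to 21.1), 14.2 in ENZS (11.3 to 17.3) and 15.97 in ENZR (9.14 to 27.8), and was lower in ENZS (-0.33 ± 0.14, adjusted p = 0.0362). The MSH6 call was lost with TPM as deposited (adjusted p = 0.256) and with no filter on low values (adjusted p = 0.0617). CDK12, the kinase that sustains transcription of long repair genes, had medians of 23.6 TPM in PRE-CX (10.9 to 35.0), 27.6 in POST-CX (17.9 to 32.8), 21.8 in CRPC (11.6 to 25.9), 22.5 in ENZS (17.5 to 34.7) and 28.1 in ENZR (19.5 to 32.4), and was not called against PRE-CX in any group.

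Set against the castrated groups directly, the ENZS tumours were again lower. Against CRPC, ENZS tumours had 21 members lower and 1 higher, against 6.41% and 31.4% of all genes. Against POST-CX, the earlier androgen-deprived group at low PSA, 21 were lower and 0 higher, against 7.53% and 20.2%. Of the 22 members lower than PRE-CX in ENZS, 20 were lower than CRPC and 20 lower than POST-CX. These comparisons share the ENZS tumours, and the overlap was not counted over all genes. BRCA1, for example, was lower in ENZS by 1.66 ± 0.28 than in CRPC (adjusted p = 2.06e-05) and by 1.90 ± 0.30 than in POST-CX (adjusted p = 5.70e-06). PARP2 and MSH6 were the exceptions in both, while RMI1 was lower than CRPC (-0.42 ± 0.12) and than POST-CX (-0.36 ± 0.13) without being lower than PRE-CX. With TPM as deposited RMI1 passed against neither (adjusted p = 0.253 and 0.742), and the POST-CX comparison also failed without POST-CX mouse 99 (adjusted p = 0.0523), without the 2 tumours of most extreme MKI67 (adjusted p = 0.0524) and with no filter (adjusted p = 0.0510). ATR was the member higher than in CRPC (0.33 ± 0.11, adjusted p = 0.0216), a call lost with centring on the median gene (adjusted p = 0.333), with TPM as deposited (adjusted p = 0.446) and without the 2 tumours of most extreme MKI67 (adjusted p = 0.0552).

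Androgen-induced genes were already low 1 week after castration. FKBP5, a direct target of the androgen receptor, had medians of 152 TPM in PRE-CX (91.8 to 423), 34.5 in POST-CX (14.1 to 36.7), 29.9 in CRPC (19.4 to 70.6), 19.0 in ENZS (10.3 to 55.2) and 12.4 in ENZR (9.39 to 112). Of 6 androgen-induced genes (KLK3 and FKBP5 among them), 6 were lower than PRE-CX in POST-CX, 3 in CRPC, 6 in ENZS and 6 in ENZR. FKBP5 was lower than PRE-CX by 2.40 ± 0.33 in POST-CX (adjusted p = 4.80e-07), and its difference between ENZS and POST-CX was -0.49 ± 0.31 (adjusted p = 0.251). KLK3, which encodes PSA, had medians of 1529 TPM in POST-CX and 2803 TPM in ENZS, a difference of 0.48 ± 0.49 (adjusted p = 0.494). In CRPC KLK3 ran from 2825 to 6828 TPM, close to its PRE-CX range of 2129 to 6770 TPM. MKI67 had medians of 13.7 TPM in PRE-CX (5.04 to 25.8), 11.0 in POST-CX (5.77 to 15.1), 9.37 in CRPC (3.21 to 13.3), 1.71 in ENZS (0.359 to 5.83) and 3.10 in ENZR (1.12 to 13.1). Its log2 difference from PRE-CX was -0.28 ± 0.33 in POST-CX (adjusted p = 0.552), -2.33 ± 0.30 in ENZS (adjusted p = 4.21e-09) and -1.63 ± 0.28 in ENZR (adjusted p = 3.35e-06).

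Within groups, tumours with more MKI67 had more of most repair genes. In a fit with the 5 group means and 1 common slope on log2 MKI67, 25 of 35 members had a positive slope and 0 a negative one, against 8.93% of all genes positive and 13.5% negative. All 22 members lower in ENZS were among the 25, and the other 3 were RAD50, PARP1 and RMI1. This overlap was not counted over all genes. It was not particular to repair genes, since 20 of 20 mitosis genes and 20 of 20 DNA replication genes were also lower in ENZS with a positive slope. The slopes of PARP1 and RMI1 did not pass without POST-CX mouse 91 and ENZR mouse 87 (adjusted p = 0.0831 and 0.120). The steepest slopes, in log2 units of the gene per log2 unit of MKI67, were 0.88 ± 0.10 for RAD54L, 0.85 ± 0.07 for BRCA1, 0.85 ± 0.08 for EXO1 and 0.81 ± 0.06 for FANCI (adjusted p = 2.00e-15). FANCA had a flatter slope of 0.45 ± 0.07, and PARP1 one of 0.19 ± 0.06. None of the 4 members higher in ENZS had a called slope, with 0.09 ± 0.14 for BARD1, 0.08 ± 0.07 for PMS2, -0.10 ± 0.08 for ATM and -0.11 ± 0.05 for FANCL. In the 15 ENZR tumours alone, 19 members still had a positive slope, against 2.93% of all genes. The pair of ENZR tumours with the highest MKI67, mouse 104 (13.1 TPM) and mouse 75 (11.5 TPM), had BRCA1 at 20.3 and 17.0 TPM and EXO1 at 7.97 and 11.5 TPM, inside the PRE-CX ranges.

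**Figure D3:**
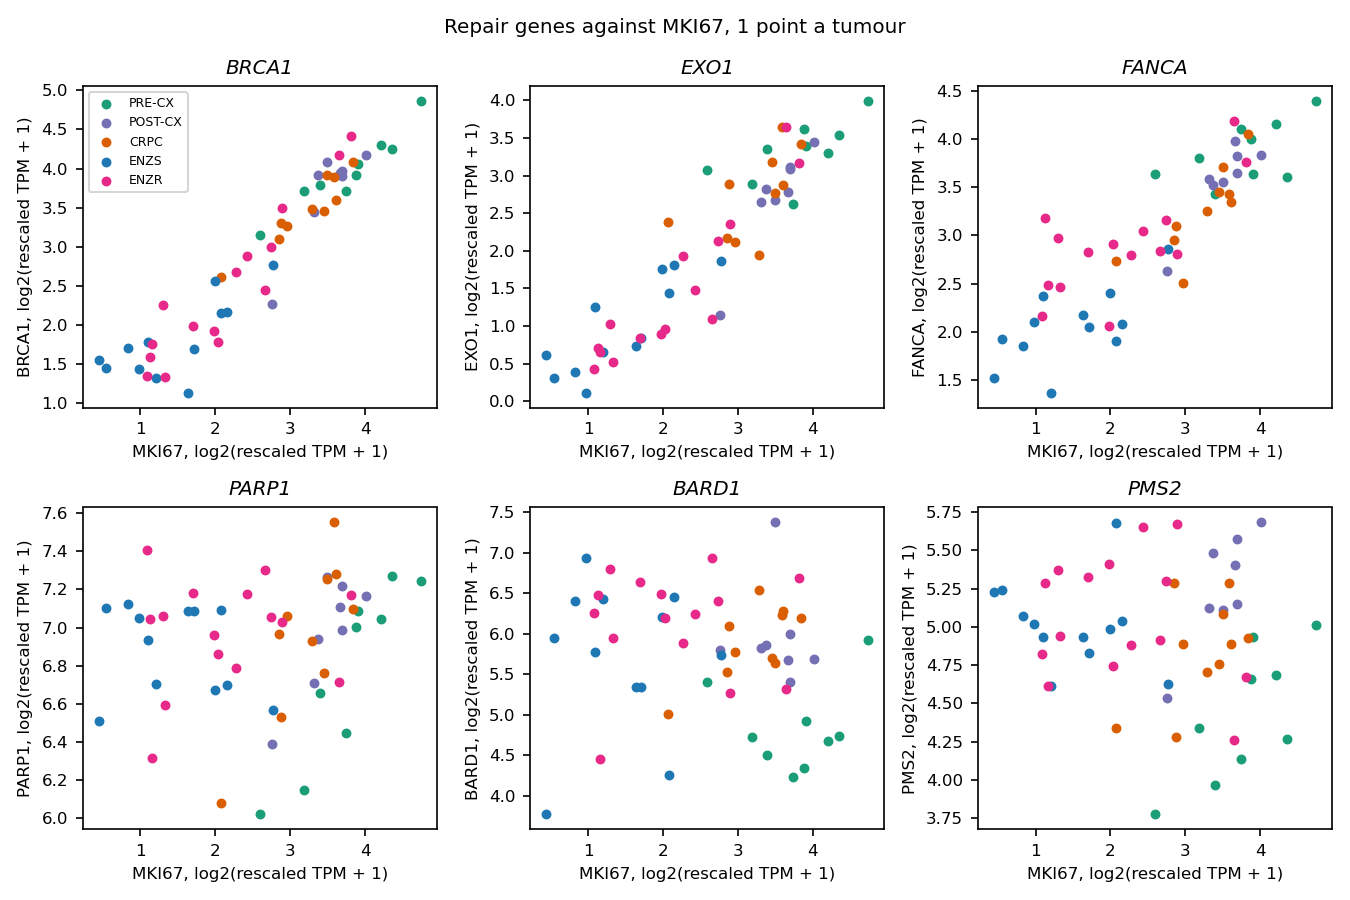
Each point is 1 of the 54 tumours, with log2(rescaled TPM + 1) of MKI67 on the horizontal axis and of 1 repair gene on the vertical axis, coloured by group. BRCA1 and EXO1 climb with MKI67 (within-group slope 0.85 for each), FANCA climbs less (0.45), and PARP1 (0.19), BARD1 (0.09) and PMS2 (0.08) are flat or nearly so.

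Put at equal MKI67, most of the ENZS differences were no longer called. In the fit that holds MKI67 beside the groups, 1 member was lower in ENZS than in PRE-CX and 3 were higher, against 3.51% and 17.8% of all genes. The median log2 difference of the 22 members lower in ENZS went from -1.56 to -0.19, each of the 22 came nearer to 0, and 21 of them no longer passed. Over all genes, too, calls lower in ENZS became fewer with the MKI67 term, from 2386 to 617. BRCA1 was at -0.19 (95% interval -0.61 to 0.24), EXO1 at -0.34 (-0.88 to 0.20), EME1 at -0.26 (-0.71 to 0.19), RMI2 at -0.37 (-0.87 to 0.14), BRCA2 at -0.39 (-0.85 to 0.07), CHEK1 at -0.48 (-0.91 to -0.05), RAD51AP1 at -0.41 (-0.95 to 0.14) and RAD54L at -0.34 (-0.97 to 0.29). The intervals of the 21 reach down to -0.97, so the missing calls do not show that nothing remained. FANCA alone stayed lower (-0.78 ± 0.21, adjusted p = 0.00804). That call also passed with the mean of 20 mitosis genes (adjusted p = 0.0193) or of 20 DNA replication genes (adjusted p = 0.0373) in place of MKI67, and with tumours centred on the median gene (adjusted p = 0.0114), but not with TPM as deposited (adjusted p = 0.157).

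Only 1 of 12 ENZS tumours had MKI67 at or above the lowest PRE-CX tumour, against 8 of 8 POST-CX, 9 of 10 CRPC and 5 of 15 ENZR tumours. The ENZS value at equal MKI67 thus rests on carrying the common slope across levels that the groups hardly share. In ENZR, where more tumours overlap, 2 members were lower and 5 higher at equal MKI67, against 6.59% and 25.4% of all genes. The lower ones were CHEK1 (-0.52 ± 0.18, adjusted p = 0.0232) and RAD51AP1 (-0.59 ± 0.22, adjusted p = 0.0378), and neither passed with a mitosis or DNA replication list in place of MKI67. Other alternatives went the other way. Without POST-CX mouse 91 and ENZR mouse 87, and with a pseudocount of 0.1, 5 members were lower in ENZR at equal MKI67. The higher ones were BARD1 (1.46 ± 0.35), PMS2 (0.77 ± 0.20), RAD50 (0.63 ± 0.19), PARP1 (0.52 ± 0.17) and CDK12 (0.51 ± 0.17). In ENZS, RAD50 (0.77 ± 0.23, adjusted p = 0.0136), PMS2 (0.78 ± 0.24, adjusted p = 0.0153) and PARP1 (0.56 ± 0.20, adjusted p = 0.0401) were called higher, although RAD50 and PARP1 did not pass between the groups without the MKI67 term. With the mitosis list in place of MKI67 only PMS2 of these 3 passed in ENZS, and with the DNA replication list none did. The PARP1 call in ENZS was also lost without POST-CX mouse 91 and ENZR mouse 87 (adjusted p = 0.0882). With centring on the median gene 0 members were higher in ENZS, and in ENZR only BARD1 and PMS2 were (2 members).

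In POST-CX the MKI67 term left the calls as they were. There 1 member was lower and 5 were higher at equal MKI67, against 5.46% and 19.4% of all genes, and they were the same genes as without the term: PARP2 lower, and BARD1, PMS2, ATM, FANCL and RBBP8 higher. MKI67 itself differed little between POST-CX and PRE-CX and was not called, as given above. The term could therefore shift these differences little, and the unchanged calls do not tell which members follow division. In CRPC the counts went from 4 lower (CHEK1, XRCC3, FANCA and PARP2) to PARP2 alone, at -0.33 ± 0.08 (adjusted p = 0.00176), while BARD1 and RMI1 were higher, against 4.47% and 9.55% of all genes. Without the term, the limma call of XRCC3 (adjusted p = 0.0485) was lost with TPM as deposited (adjusted p = 0.472). It was also lost with no filter (adjusted p = 0.0950) and without POST-CX mouse 99 (adjusted p = 0.0509). Between ENZS and CRPC at equal MKI67, limma called 0 members lower and 0 higher, against 0.0966% and 0.523% of all genes, with 6 members and 3828 genes at an unadjusted p under 0.05.

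**Figure D4:**
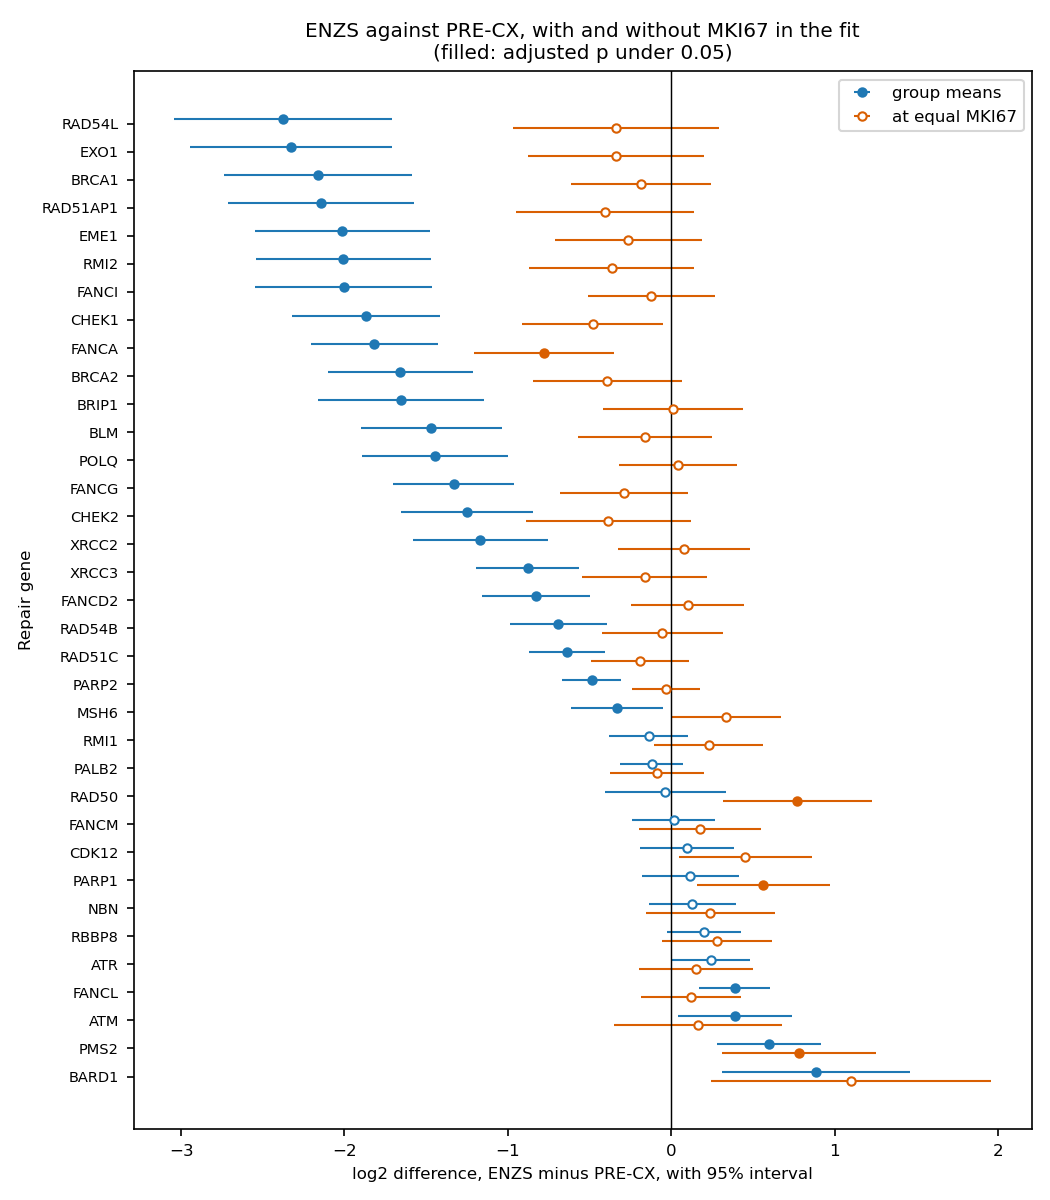
Log2 differences of the 35 members between ENZS and PRE-CX with 95% intervals, from the fit of group means (blue) and from the fit that also holds MKI67 (orange), ordered by the first; filled points have an adjusted p under 0.05. The 22 lower genes move to within -0.78 to 0.33 of 0 in the second fit, and FANCA is the filled orange point on the lower side.

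MKI67 and androgen output are themselves linked in these tumours. After taking out the group means, log2 MKI67 and the mean of the 6 androgen-induced genes had a Pearson r of 0.66 over 54 tumours, given as a description. In the MKI67 fit 5 of 6 androgen-induced genes had a positive slope, and only 2 of 6 were still lower in ENZS, so that holding MKI67 equal also takes out much of the androgen difference. With both terms in 1 fit, 22 of 35 members kept a positive slope on MKI67 and 0 a negative one, against 4.09% and 3.55% of all genes. In that fit limma called 0 members on the androgen-induced list in either direction, against 0.33% of all genes positive and 0.256% negative, with 5 members and 2607 genes at an unadjusted p under 0.05. RAD54L came nearest, with a slope of 0.46 ± 0.12 on the androgen-induced list (adjusted p = 0.0537) beside 0.58 ± 0.12 on MKI67. BRCA1 had 0.79 ± 0.09 on MKI67 in the same fit. These slopes come from tumours of the same group and say nothing of what sets the level of either.

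The promoters of the members were read for sites of the cell cycle transcription factors, since many replication genes are switched on by E2F factors before S phase. Of the 35 members, 31 had an entry in the RefSeq promoter table (GRCh38.p14, 250 bases before to 50 after the start of each gene). The search took the E2F core as GCGGGAA and GGCGGGA and TTGGCGC on both strands, where the first and second words overlap in a longer site. It was found in 17 of the 22 members with a positive slope and in 4 of the 9 others, against 20.2% of all 35116 promoters, 37.7% of those of 10971 genes tested and 45.8% of those of 1132 genes with a positive slope. CCAAT was found in 11 of the 22 and 4 of the 9, against 34.6% of all promoters, 43.4% of genes tested and 50.1% of genes with a positive slope. The cell cycle homology region, TTTGAA and TTCGAA, was found in 3 of the 22 and 1 of the 9, against 16.4%, 15.3% and 21.3%. These 3 motifs were chosen after the data had been seen. A match is a run of letters and not a measured binding site. A set of 5 windows of 120 bases that end at the RefSeq start are printed 5′ to 3′ along the gene with the E2F core in capitals, 3 from members that fell in ENZS (RAD54L at chr1:46247568-46247687, plus strand; RAD51AP1 at chr12:4538770-4538889, plus strand; BLM at chr15:90717226-90717345, plus strand) and 2 from members that did not fall (PARP1 at chr1:226408094-226408213, minus strand; FANCM at chr14:45135810-45135929, plus strand).
RAD54L: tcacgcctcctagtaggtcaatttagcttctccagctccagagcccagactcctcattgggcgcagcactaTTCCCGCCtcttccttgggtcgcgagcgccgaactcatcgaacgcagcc
RAD51AP1: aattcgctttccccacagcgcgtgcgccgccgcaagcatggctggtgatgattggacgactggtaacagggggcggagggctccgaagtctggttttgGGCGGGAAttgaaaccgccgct
BLM: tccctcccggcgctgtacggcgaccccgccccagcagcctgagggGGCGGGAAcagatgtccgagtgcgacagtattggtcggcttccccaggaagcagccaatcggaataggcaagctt
PARP1: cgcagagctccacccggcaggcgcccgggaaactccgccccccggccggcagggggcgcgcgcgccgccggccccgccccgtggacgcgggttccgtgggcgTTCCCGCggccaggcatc
FANCM: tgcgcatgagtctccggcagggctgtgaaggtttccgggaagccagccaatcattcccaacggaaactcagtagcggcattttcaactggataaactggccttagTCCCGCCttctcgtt
All 5 printed windows hold the core, so they show where it stands and do not compare genes that fell with genes that did not. Of the latter, PARP1 is counted above among the 22 members with a positive slope, and FANCM among the 9 others.

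No member was called between relapsed and responding tumours. Between ENZR and ENZS limma called 0 lower and 0 higher, against 0.0% of all genes in either direction, with 8 members and 1752 genes at an unadjusted p under 0.05. The estimates were above 0 for 34 of 35 members, with a median of 0.23 against -0.04 over all genes, and that of MKI67 was 0.69 ± 0.26 (adjusted p = 0.394). The largest were BRCA2 at 0.88 ± 0.19 (adjusted p = 0.117) and FANCA at 0.86 ± 0.17 (adjusted p = 0.0915), and FANCA passed without POST-CX mouse 91 and ENZR mouse 87 (adjusted p = 0.0309). Between CRPC and POST-CX limma also called 0 members lower and 0 higher, against 0.0568% and 0.00568% of all genes, with 5 members and 2259 genes at an unadjusted p under 0.05. The difference of the 2 relapse steps, ENZR minus ENZS less CRPC minus POST-CX, was called for FANCA alone (1.18 ± 0.27, adjusted p = 0.0394), against 0.0966% of all genes called higher. FANCA was 0.86 higher in ENZR than in ENZS, and -0.32 ± 0.21 in CRPC against POST-CX, neither of which passed. That call was lost with TPM as deposited (adjusted p = 0.231) and without POST-CX mouse 99 (adjusted p = 0.0641).

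The other repair genes were counted in the same way, beside 13.6% of all genes called lower and 47.5% called higher in ENZS. There 8 of 26 other recombination genes tested were lower and 6 higher, 5 of 12 other Fanconi genes lower and 3 higher, 6 of 15 other checkpoint genes lower and 4 higher, and 5 of 16 end joining genes lower and 2 higher. Of base excision repair genes 7 of 17 were lower and 3 higher, of 5 other mismatch repair genes 1 was lower and 2 higher, and of 14 nucleotide excision repair genes 1 was lower and 9 higher. All 20 mitosis genes and all 20 DNA replication genes were lower in ENZS and in ENZR, with median log2 differences in ENZS of -2.81 and -1.53 against -0.83 for the 35 members. In POST-CX 0 of the mitosis genes and 3 of the replication genes were lower. At equal MKI67 the ENZS counts were 2 of 20 and 3 of 20.

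**Figure D5:**
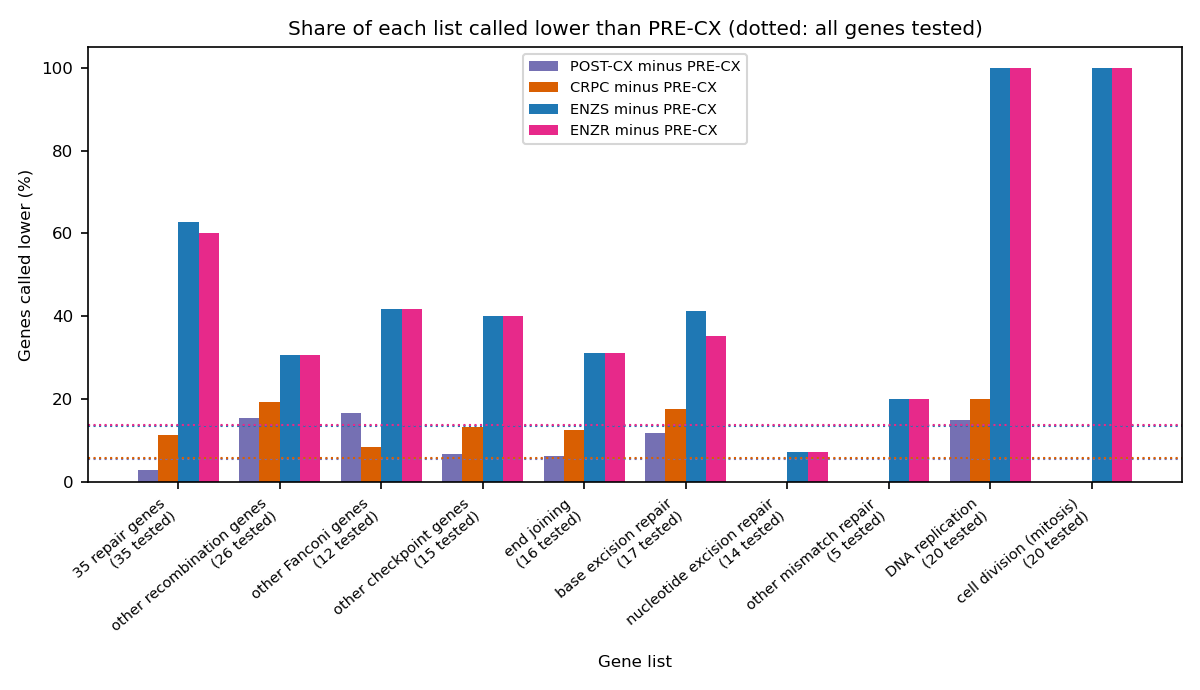
Bars give the percentage of each gene list called lower than PRE-CX (adjusted p under 0.05) in POST-CX, CRPC, ENZS and ENZR, with the number of genes tested under each list; dotted lines give the percentage over all genes tested, 13.6% in ENZS. Mitosis and DNA replication reach 100% in both enzalutamide groups, the 35 repair genes 62.9% and 60%, and nucleotide excision repair 7.14%.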

How the data were processed

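RNA was measured in 54 LNCaP xenograft tumours of 5 groups taken from the sample labels; each tumour is its own mouse and the labels give no batch. According to the study's methods, libraries were stranded and polyA-selected, and FastQC 0.11.9, Trim Galore 0.6.5, STAR 2.7.2b (combined human GRCh38 and mouse GRCm38) and RSEM 1.3.3 were used. The authors deposited TPM of human genes, a measure per transcript length with no read depth, so no counting interval is given and precision rests on the spread between tumours. Each tumour was rescaled to 1000000 human TPM and log2(TPM + 1) taken; the pseudocount understates changes of low genes. Genes reaching 1 TPM in 8 tumours or more (17593) were tested with limma 3.58.1 (R 4.3.3, trend option) in 1 fit of 5 group means with Benjamini-Hochberg adjustment over all genes; called means an adjusted p under 0.05. Another fit added log2 MKI67, and 1 more also the mean of the androgen-induced list. The code was tested on simulated data.

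Members, gene lists (2 division lists, 7 other repair lists, androgen-induced genes, LNCaP, stroma and blood, and basal prostate markers) and tests were chosen with earlier results of these data known. Full values were given for the 8 members with the lowest ENZS p, members called higher than PRE-CX, members called at equal MKI67, and 7 genes often tested in prostate cancer; the others by median. The basal markers KRT5 and TP63 were under 1 TPM in every tumour. Alternatives were TPM as deposited, centring, another pseudocount, other filters, other covariates and fewer tumours. The comparison of ENZS with POST-CX, the fit with both covariates, slopes in ENZR alone, the deposited values without 2 tumours and the fits without POST-CX mouse 99 or the 2 tumours of most extreme MKI67 were added after seeing the data. Some genes are not reported here.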

Additional observations from a re-analysis of the deposited data

Results flagged for a closer look

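The 17 members described in full were checked on log2(rescaled TPM + 1) in the groups of 4 to 10 tumours. The check sought a highest or lowest tumour standing apart from the rest. In 51 checks 7 stood apart, where chance gives about 1 in 20 groups. Of these, 6 were POST-CX mouse 91 as the lowest of its group, a tumour with 27.89% human TPM. It had 5.20 TPM of FANCA (the other 7 tumours 10.5 to 14.8), 1.22 of EXO1 (5.25 to 9.88), 7.53 of RAD51AP1 (20.1 to 31.5), 3.84 of BRCA1 (9.91 to 17.1), 5.13 of RMI2 (12.0 to 21.5) and 8.25 of RAD50 (20.1 to 32.3). Without POST-CX mouse 91 and ENZR mouse 87, 22 members were lower in ENZS and 21 in ENZR, as with them.

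BARD1 in POST-CX mouse 99 was 165.5 TPM, against 41.3 to 63.0 in the other tumours of that group. Without it 3 members were higher in POST-CX (BARD1, PMS2 and FANCL) in place of 5.

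The relapse step of FANCA differed between the enzalutamide and the castration arm by 1.18 on the log2 scale (adjusted p = 0.0394 by limma, 0.00886 to 0.231 over the alternatives).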

How the results depend on the processing

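Among 121 called differences and slopes of single members, 1302 values under the alternatives had the direction of the main one in every case, 1200 on the same side of the threshold and 102 no longer past it. The counts of members lower in ENZS and ENZR and of positive slopes stayed within 1.5 times under every alternative, except that a required log2 difference of 1 left 11 lower in ENZR and 12 in ENZS against CRPC. That threshold left 0 lower in POST-CX and CRPC, 1 higher in POST-CX and ENZR, 0 higher in ENZS against PRE-CX or CRPC, and, at equal MKI67, 0 lower in POST-CX, CRPC, ENZS and ENZR, 0 higher in ENZS and 1 higher in POST-CX, CRPC and ENZR.

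Scaling moved the higher calls most. TPM as deposited gave 0 higher in POST-CX, CRPC and ENZS and in ENZS against CRPC, 1 higher in ENZR, 0 lower in POST-CX and CRPC, and 0 for the relapse difference. At equal MKI67 they gave 0 lower in POST-CX, CRPC, ENZS and ENZR. Higher were 0 in POST-CX, 1 in CRPC, 15 in ENZS and 9 in ENZS against CRPC. Of all 17130 genes tested in that setting, 10775 were higher in ENZS and 6156 in ENZS against CRPC. That fit holds 2 tumours with low human totals. Without them the deposited values gave 2 higher and 0 lower in POST-CX, 2 higher in CRPC and 0 higher in ENZS against CRPC, and, at equal MKI67, 2 higher and 0 lower in POST-CX and 4 higher and 0 lower in CRPC. Centring gave 3 lower and 2 higher in POST-CX, 2 higher in ENZR, 0 higher in ENZS against PRE-CX or CRPC, and, at equal MKI67, 2 lower and 2 higher in POST-CX, 1 higher in CRPC, 0 in ENZS and 2 in ENZR.

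With the mitosis list as covariate, 1 was higher in ENZS, and 3 higher and 0 lower in ENZR; with the DNA replication list, 8 were higher in POST-CX, 0 higher in ENZS and 0 lower in ENZR. No filter gave 3 higher in POST-CX, with and without MKI67, 1 lower in CRPC, 0 for the relapse difference and, at equal MKI67, 1 higher in CRPC and 1 lower in ENZR; more genes are adjusted over there. A filter at 5 TPM gave 2 higher in ENZS against CRPC. Fits of only the 2 groups gave 10 lower in CRPC and 2 in POST-CX. Of all 17593 genes, those fits called similar numbers lower, 1132 in CRPC and 1137 in POST-CX. A pseudocount of 0.1 gave 1 higher in ENZR against ENZS, 5 lower in ENZR at equal MKI67 and 1 negative slope. Without POST-CX mouse 91 and ENZR mouse 87, 3 were higher in CRPC, 1 in ENZR against ENZS, and 5 lower in ENZR at equal MKI67. Without POST-CX mouse 99, 3 were higher in POST-CX, with and without MKI67, 2 in ENZS against CRPC and 0 for the relapse difference. Where not named, the cause was not tested. No paired analysis was possible because no mouse number is shared between groups.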
